A study of Homo sapiens with 10 samples.

Results

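*EHF*, *ELF3*, *ELF1*, *ELF2*, *ELF4*, *ETS1*, *ETS2*, *ELK1*, *ELK3* and *ELK4* are genes of ETS-domain transcription factors, and their mRNA was followed here in HCT116 cells, a human colorectal cancer line. The 10 genes were selected by name around *EHF*, which was chosen from its fall in the *ZMAT3*-KO libraries of these same data. All 10 have a row in the *ZMAT3* table, which lists 13029 genes, and in the siRNA table, which lists 17642. RNA was sequenced from 10 libraries. In the first experiment 3 cultures of a *ZMAT3*-WT clone were set against 3 cultures of a *ZMAT3*-KO clone, in which CRISPR/Cas9 editing near the p53 response element in a *ZMAT3* intron left the rest of the locus in place. In the second, cells transfected for 72 h with a pool of siRNAs to p53 (sip53, 2 libraries) were set against cells given a control siRNA (siCTRL, 2 libraries). No group was given a drug. Since each *ZMAT3* genotype is 1 clone, the spread between its libraries is that between cultures, and genotype and clone cannot be told apart in what follows. In bulk RNA, fewer cells that express a gene and less RNA per cell cannot be told apart either.

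ETS factors share a winged helix DNA-binding domain that reads a short core sequence, GGAA, so that members of the family can compete for the same sites. EHF and ELF3 belong to an epithelial subgroup and are active in glands and in the lining of the gut, where they take part in differentiation. ELF1, ELF2 and ELF4 are expressed in many tissues, and ELF1 and ELF4 are best known from blood cells. ETS1 and ETS2 are switched on by ERK phosphorylation, and ELK1, ELK3 and ELK4, the ternary complex factors, bind with SRF at serum response elements of immediate early genes.

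*EHF* lies on the plus strand of chromosome 11 (hg38, chr11:34621093-34663288) and *ELF3* on the plus strand of chromosome 1 (chr1:202007945-202017183), both positions from GENCODE release 44. The promoter windows of these genes are shown because they are the epithelial members, whose mRNA was lower in *ZMAT3*-KO cells by the numbers given further on. Each window runs from 250 bases before to 50 bases after a RefSeq transcript start (GRCh38.p14, plus strand) and lies inside the span of its gene, and capitals mark the ETS core GGAA or its reverse complement TTCC.
EHF start 1, chr11:34624007-34624306: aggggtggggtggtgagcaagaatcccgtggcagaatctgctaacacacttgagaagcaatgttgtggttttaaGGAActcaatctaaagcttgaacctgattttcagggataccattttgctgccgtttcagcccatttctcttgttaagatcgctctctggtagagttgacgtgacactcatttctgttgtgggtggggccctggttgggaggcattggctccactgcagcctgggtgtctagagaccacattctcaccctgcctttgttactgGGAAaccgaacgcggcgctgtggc
EHF start 2, chr11:34632316-34632615: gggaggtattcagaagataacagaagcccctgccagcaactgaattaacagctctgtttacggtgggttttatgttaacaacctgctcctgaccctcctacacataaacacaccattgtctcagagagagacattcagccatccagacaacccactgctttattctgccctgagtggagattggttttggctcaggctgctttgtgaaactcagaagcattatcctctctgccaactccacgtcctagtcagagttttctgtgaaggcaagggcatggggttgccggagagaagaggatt
ELF3 start 1, chr1:202010337-202010636: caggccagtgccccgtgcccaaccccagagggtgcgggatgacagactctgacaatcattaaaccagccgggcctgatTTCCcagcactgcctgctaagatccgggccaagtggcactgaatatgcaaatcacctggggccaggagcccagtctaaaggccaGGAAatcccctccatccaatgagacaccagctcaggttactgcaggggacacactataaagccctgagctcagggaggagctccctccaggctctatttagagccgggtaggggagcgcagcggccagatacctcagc
The core is in the window of the first *EHF* start at 2 places, is not in the second *EHF* window, and is in the *ELF3* window at 2 places. RefSeq windows were matched for 9 of the 10 genes, with *ETS1* unmatched, and gave 17 windows in all. GGAA, read on both strands, was in 14 of these 17 and in 95.4% of 34943 human promoter windows of the same 300 bases. The longer AGGAAG, which contains GGAA, was in 6 of 17 windows against 33.7% of all windows, and neither *EHF* nor *ELF3* had it. CCGGAAGT, which also contains GGAA, was in 1 window, that of *ELK4*, against 4.11% of all. The AP-1 sequence TGAGTCA or its reverse complement TGACTCA was in 1 window, of *ELF4*, against 4.96%. These are matches of letters and say nothing of whether a factor binds there.

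The labels of the *ZMAT3* experiment were checked on the targeted gene. *ZMAT3* was at 5.00, 5.20 and 5.26 log2 CPM (read counts divided by the library total, on a log scale) in the *ZMAT3*-WT libraries and at 2.25, 2.34 and 2.20 in the *ZMAT3*-KO libraries, and the *ZMAT3*-KO level was 0.135 of the *ZMAT3*-WT level. The deposited log2 CPM values had also been set to the same distribution in all libraries, so they are not plain scaled counts. In the siRNA experiment *ZMAT3*, itself a p53 target, was at 12 and 13.62 FPKM (fragments per length of transcript and per library total) with siCTRL and at 3.16 and 1.97 FPKM with sip53, 0.202 of the control level. Of 6 markers of colorectal epithelium, *EPCAM*, *CDH1*, *KRT8*, *KRT18* and *CDX2* were present in all libraries, while *VIL1*, which encodes a protein of the brush border, was at only 0.13 to 0.22 FPKM. Of 6 markers of blood, connective tissue and vessel cells, only *COL1A1* was listed, at 3.20 to 3.45 log2 CPM in the *ZMAT3* experiment and 4.08 to 7.06 FPKM in the siRNA experiment.

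*EHF* mRNA was close to absent in the *ZMAT3*-KO clone. It was at 5.47, 5.51 and 5.47 log2 CPM in the 3 *ZMAT3*-WT libraries and at -2.93, -3.61 and -3.90 in the 3 *ZMAT3*-KO libraries. On the linear scale this is 44.7 CPM ± 0.804 (SD, n = 3) against 0.0935 CPM ± 0.0338 (SD, n = 3). All *ZMAT3*-KO libraries were far below all *ZMAT3*-WT libraries, and the difference of -8.96 on the log2 scale (SE 0.20) had the third largest size among the 13029 genes of the table. Were the smallest value listed to mean 0 reads with 0.5 added, 3 reads would correspond to -3.81 log2 CPM. *ZMAT3*-KO libraries 1 and 2 were a little above and library 3 a little below that level. That level is a rough mark only, since the same distribution was set for all libraries and values need not follow whole reads. A difference from values so near the detection limit depends on how low values are treated, and with a pseudocount of 1 CPM it was -5.39, or 41.8-fold. Leaving out each library in turn gave -9.24 to -8.75. As *EHF* was chosen for this difference, it is given as a description, with no test.

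*ELF3*, the other epithelial factor, was also lower in *ZMAT3*-KO cells, by much less. It was at 6.63, 6.46 and 6.53 log2 CPM in *ZMAT3*-WT and at 5.93, 5.85 and 5.89 in *ZMAT3*-KO libraries, a difference of -0.65 (SE 0.042) or 1.57-fold. The groups did not overlap. *ELF3* shares its locus with the antisense gene *ELF3-AS1* and with a further non-coding gene on its own strand, and the libraries of the *ZMAT3* experiment were stranded.

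*ETS1* was the third gene that was lower. It was at 2.75, 2.86 and 2.84 log2 CPM in *ZMAT3*-WT and at 1.93, 2.33 and 1.98 in *ZMAT3*-KO libraries, a difference of -0.74 (SE 0.101) or 1.67-fold. Library 2 of *ZMAT3*-KO was the highest of its group and still below every *ZMAT3*-WT library. *ETS2*, its close relative, was at 5.75, 5.66 and 5.72 log2 CPM in *ZMAT3*-WT and at 5.57, 5.60 and 5.47 in *ZMAT3*-KO libraries. The difference of -0.16 (SE 0.042) was small, although the groups did not overlap.

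**Figure D1:**
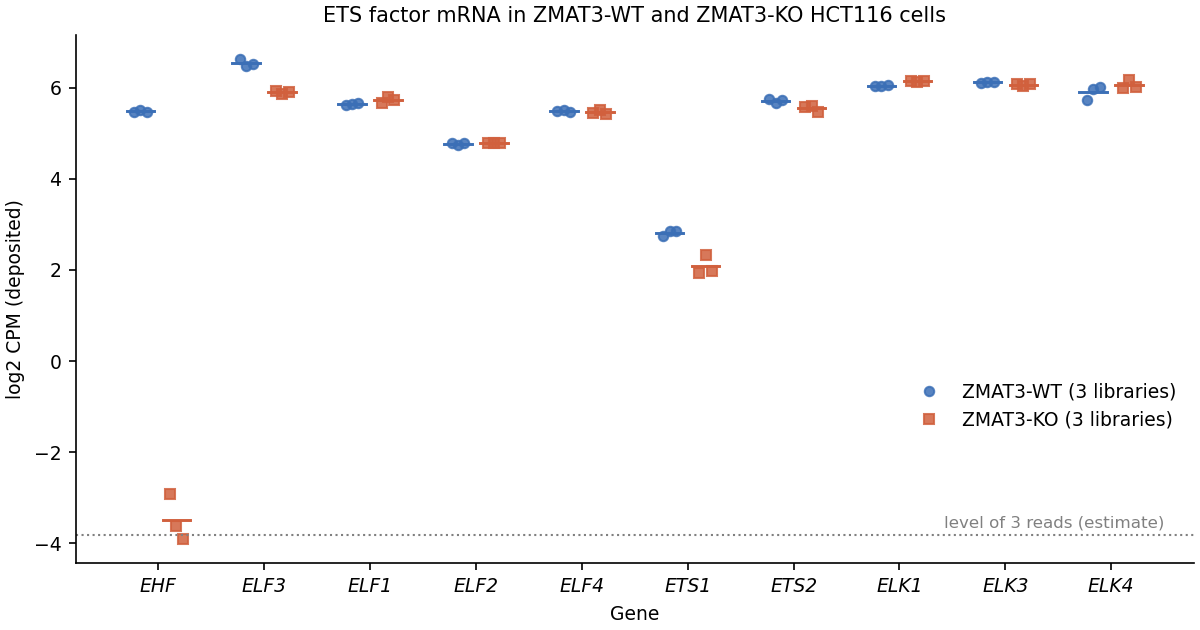
Deposited log2 CPM of the 10 ETS factor genes, with circles for the 3 ZMAT3-WT libraries, squares for the 3 ZMAT3-KO libraries and a line at each group's mean. EHF goes from 5.47 to 5.51 in ZMAT3-WT down to between -3.90 and -2.93 in ZMAT3-KO, around the dotted line, a rough estimate for 3 reads (-3.81). ELF3 and ETS1 are lower by 0.65 and 0.74 and the other 7 genes differ by under 0.2. Levels of different genes are not to be compared on this scale, which is not per length.

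The other ETS factors differed little between the clones. *ELF1* was at 5.62 to 5.66 log2 CPM in *ZMAT3*-WT and 5.66 to 5.80 in *ZMAT3*-KO libraries, *ELF2* at 4.74 to 4.79 and 4.77 to 4.79, and *ELF4* at 5.46 to 5.50 and 5.41 to 5.51. Among the ternary complex factors, *ELK1* was at 6.03 to 6.05 log2 CPM in *ZMAT3*-WT and 6.12 to 6.15 in *ZMAT3*-KO libraries, *ELK3* at 6.11 to 6.12 and 6.03 to 6.07, and *ELK4* at 5.72 to 6.02 and 5.98 to 6.16. *ELK1* and *ELK3* did not overlap between the groups but moved in opposite directions by 0.10 and -0.06, *ELF1* did not overlap either, and the groups of *ELF2*, *ELF4* and *ELK4* overlapped. The differences of the 9 genes other than *EHF* ran from -0.74 to 0.15, and 7 of the 9 were within 0.2 of no change.

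Past an adjusted p of 0.05 and 1.5-fold, the thresholds of the study, were 3 of the 10 genes, *EHF*, *ELF3* and *ETS1*, all lower in *ZMAT3*-KO cells, of which *EHF* was bound to pass because it was chosen for this fall. Of all 13029 genes 8.96% passed, 4.37% lower and 4.6% higher. Without the fold threshold 5 of 10 passed, 4 lower and *ELK1* higher, against 58.8% of all genes, and in 7 of 10 the groups did not overlap, against 64.2% of all genes. The median difference over the 10 genes was -0.05 and that over all genes -0.01. Since the list was drawn up with this contrast known, nothing is read from these counts.

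**Figure D2:**
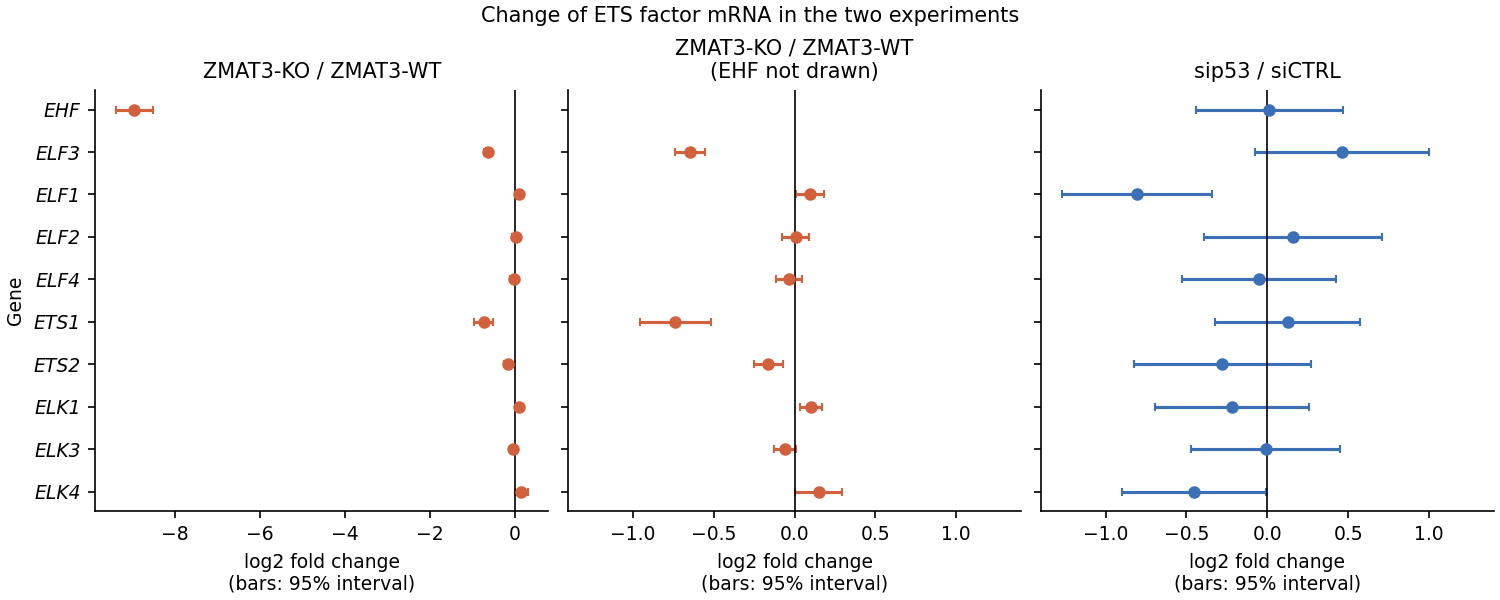
Log2 fold change of each ETS factor gene with its 95% interval, for ZMAT3-KO over ZMAT3-WT (left, and in the middle without EHF on a narrower scale) and sip53 over siCTRL (right). EHF stands at -8.96 on the left and at 0.01 on the right, where the interval from -0.44 to 0.47 spans no change, and ELF1 at -0.81 and ELK4 at -0.45 are the only genes on the right whose interval leaves out 0.

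The unit of the siRNA values is not stated. Read as FPKM they are per length, and on that reading the siRNA experiment gives the order of the genes within its own cells. *EHF* was the most abundant of the 10 in control cells, at 83.3 FPKM ± 7.17 (SD, n = 2). *ELF3* followed at 50.8 FPKM, *ELK3* at 39.9, *ELK1* at 32.4, *ELF1* at 25.9, *ETS2* at 24.2, *ELF4* at 13.2, *ELK4* at 12.1, *ELF2* at 10.6 and *ETS1* at 8.28. Neighbours in this order whose libraries overlapped, and which therefore have no settled order, were *ELF1* and *ETS2*, *ELF4* and *ELK4*, and *ELK4* and *ELF2*. *EHF* made up 27.7% of the summed FPKM of the 10 genes with siCTRL and 28.1% with sip53. It was also the highest of the 20 ETS family genes listed in the siRNA table, where the highest genes outside the 10 were *ETV5* at 39.8 FPKM, *ETV4* at 36.2 FPKM and *ERF* at 33.0 FPKM. With sip53 the order kept *EHF*, *ELF3*, *ELK3* and *ELK1* at its head, at 83.8, 69.7, 39.7 and 27.8 FPKM, while *ELF1* and *ELK4* each stood lower than with siCTRL.

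*EHF* was tested for a change in the siRNA experiment, which its choice did not use. It was at 88.33 and 78.19 FPKM with siCTRL and at 86.09 and 81.57 FPKM with sip53. The sip53 libraries lay between the siCTRL libraries. The difference on the log2(FPKM + 0.1) scale was 0.01 (SE 0.180, limma, unadjusted p = 0.949, adjusted p = 0.986), and its 95% interval ran from -0.44 to 0.47, or from 0.736 to 1.38 of the control level. A change of the size in the *ZMAT3*-KO clone lay outside the interval, and changes within the interval were not detectable with 2 libraries a group. Whether loss of *ZMAT3* lowers *EHF* was not tested. The experiments differ in the gene targeted, the time of depletion and the cells, and *EHF* values with *ZMAT3* siRNA were not analysed here.

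**Figure D3:**
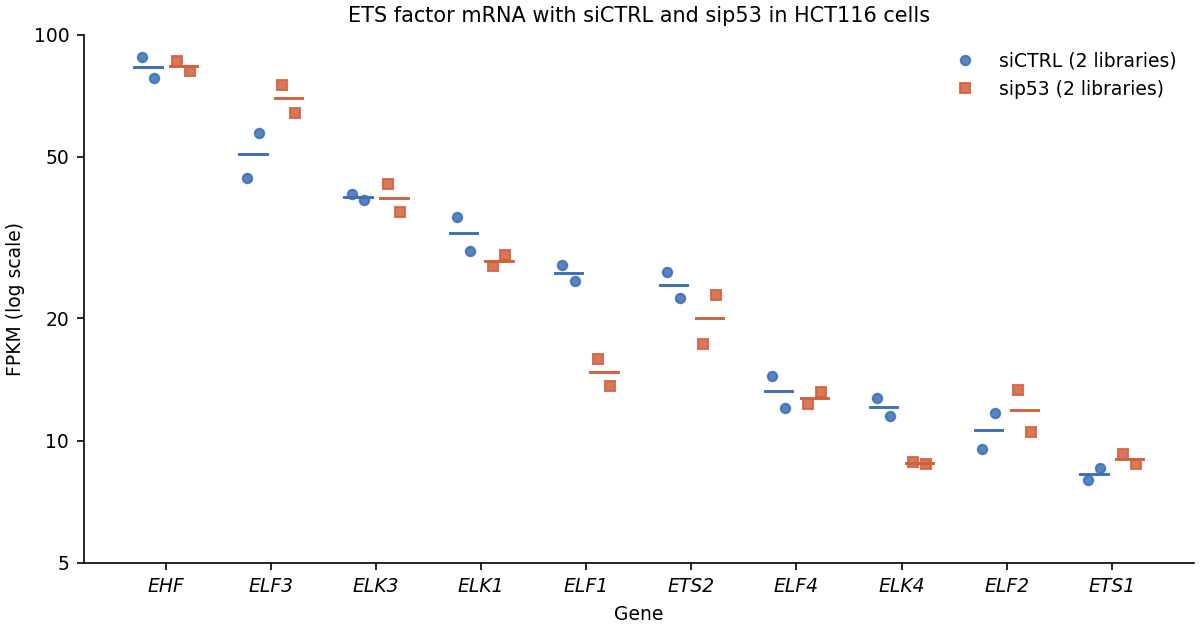
FPKM of the 10 ETS factor genes on a log axis, with circles for the 2 siCTRL libraries, squares for the 2 sip53 libraries and a line at each group's mean, in the order of the siCTRL means. EHF is highest in both groups, at 83.3 and 83.8 FPKM, and the sip53 libraries lie below both siCTRL libraries for ELF1, ELK4 and ELK1 and above them for ELF3 and ETS1.

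*ELF1* was lower after p53 depletion, at 27.06 and 24.71 FPKM with siCTRL against 15.9 and 13.67 FPKM with sip53. Both sip53 libraries were below both siCTRL libraries, and the level with sip53 was 0.572 of control. The log2 difference of -0.81 (SE 0.184, 95% interval -1.27 to -0.34) passed the study's threshold for this experiment, an unadjusted p of 0.05, and not an adjusted one (limma, unadjusted p = 0.00607, adjusted p = 0.170). Without siCTRL replicate 1 it was -0.74 and missed the threshold (limma, unadjusted p = 0.0548, with the lone siCTRL library assumed to vary like the sip53 group), and without each of the other libraries it stayed past it. In the *ZMAT3* experiment *ELF1* differed by 0.10, on the other side of 0.

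*ELK4* was at 12.75 and 11.47 FPKM with siCTRL and at 8.86 and 8.76 FPKM with sip53, again with no overlap. Its log2 difference of -0.45 (SE 0.177, 95% interval -0.90 to -0.01) only just passed (limma, unadjusted p = 0.0474, adjusted p = 0.322), and it missed the threshold without any one of the 4 libraries, at -0.53 to -0.38 (limma, unadjusted p from 0.127 to 0.267). The gene overlaps *MFSD4A* on the opposite strand, and whether the siRNA reads were counted by strand is not given in the sources used here.

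*ELF3*, which was lower in the *ZMAT3*-KO clone, was higher in both sip53 libraries, at 44.42 and 57.12 FPKM with siCTRL against 75.29 and 64.13 FPKM with sip53. The difference of 0.46 (SE 0.214, 95% interval -0.07 to 1.00) did not pass (limma, unadjusted p = 0.0786, adjusted p = 0.386). When libraries were centred on their median gene it was 0.54 and passed (limma, unadjusted p = 0.0497), so the call rests on the scaling. Differently numbered siRNA libraries deviated together over all genes (correlation 0.62), which the fit did not use. *ELF3* was not looked at alone with crossed replicate numbers.

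None of the other 6 genes passed. *ETS1* was at 8 and 8.55 FPKM with siCTRL against 9.29 and 8.78 FPKM with sip53, a log2 difference of 0.13 (95% interval -0.32 to 0.57). *ETS2* was at 25.97 and 22.43 against 17.32 and 22.86 FPKM, a log2 difference of -0.28 (-0.82 to 0.27). *ELK1* was at 35.47 and 29.34 against 26.9 and 28.63 FPKM, a log2 difference of -0.22 (-0.69 to 0.26). *ETS1* and *ELK1* did not overlap between the groups, and *ETS2* did. *ELF2*, *ELF4* and *ELK3* overlapped too and had log2 differences of 0.16 (-0.39 to 0.71), -0.05 (-0.53 to 0.42) and -0.01 (-0.47 to 0.45). The intervals of these 6 genes ran from 0.566 of the control level, the lower bound of *ETS2*, to 1.63 times it, the upper bound of *ELF2*.

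In all, 2 of the 10 genes passed the unadjusted threshold with sip53, both lower, against 15.1% of the 14274 genes tested, 9.28% lower and 5.86% higher. At an adjusted p of 0.05 it was 0 of 10 in limma, against 0.273% of all genes. The groups did not overlap in 5 of 10, against 46.4% of all genes. The share of the ETS factors that passed was thus near that of all genes.

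Beyond these 10, the ETS family has 18 further genes in the list used here, of which 8 have a row in the *ZMAT3* table. This list and those that follow were chosen with earlier results of these data known, so their p-values are descriptive only. *ETV5*, a factor of the PEA3 group that responds to ERK signalling, was at 6.22, 6.23 and 6.16 log2 CPM in *ZMAT3*-WT and 6.89, 6.87 and 6.85 in *ZMAT3*-KO libraries and rose by 0.67 (SE 0.031, limma, adjusted p = 2.1e-09). *ETV7*, a repressor, was low throughout, at 0.22, 0.22 and 0.55 against -1.56, -0.77 and -0.84 log2 CPM, and fell by 1.39 (SE 0.250, limma, adjusted p = 0.000419). The groups of both genes were apart. They were the only 2 of the 8 past both thresholds, against 8.96% of all genes. The other 6 did not pass, although *ETV4* at -0.43 and *ETV1* at 0.38, both of the PEA3 group, had an adjusted p under the threshold and under 1.5-fold change.

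With sip53, 1 of 9 of these genes tested passed, against 15.1% of all genes tested, and it was again *ETV7*. It was at 2.08 and 1.85 FPKM with siCTRL against 0.20 and 0.29 FPKM with sip53, and fell by 2.59 on the log2(FPKM + 0.1) scale (SE 0.383, limma, unadjusted p = 0.000808, adjusted p = 0.0985). *ETV5* was at 42.42 and 37.22 FPKM with siCTRL against 36.85 and 42.93 FPKM with sip53, and its groups overlapped. *ELF5*, the third factor of the epithelial subgroup, was at 0.15 to 0.44 FPKM in the 4 libraries, too low to be tested.

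Factors that work with or on ETS proteins were followed in a list of 12 genes. *MRTFA*, the coactivator that competes with ELK factors for SRF, was at 5.12, 5.00 and 5.07 log2 CPM in *ZMAT3*-WT and 4.25, 4.10 and 4.15 in *ZMAT3*-KO libraries, and fell by 0.90 (SE 0.050, limma, adjusted p = 1.35e-08). It was the only one of the 12 past both thresholds, against 8.96% of all genes. Without the fold threshold 11 of 12 passed, 5 higher and 6 lower, against 58.8% of all genes, and among the 6 lower were *SRF* itself at -0.33 and *RUNX1* and *CBFB*, whose products pair with each other and bind beside ETS1, at -0.55 and -0.47. With sip53 2 of the 12 passed, against 15.1% of all genes tested, *RUNX1* and *MRTFB*. *RUNX1* was at 25.72 and 19.80 FPKM with siCTRL against 9.96 and 12.86 FPKM with sip53, a fall of 0.99 (SE 0.232, limma, unadjusted p = 0.00679, adjusted p = 0.173). *MRTFB*, a relative of *MRTFA*, was at 9.50 and 8.16 against 6.42 and 5.96 FPKM, a fall of 0.50 (SE 0.190, limma, unadjusted p = 0.0429, adjusted p = 0.309), and the count over the 12 genes was 1 without siCTRL replicate 1, without siCTRL replicate 2 or without sip53 replicate 2.

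To see whether *EHF* was lower along with its surroundings on chromosome 11, the genes next to it were compared. Of 12 listed genes whose starts lie from -569.4 to 1041.7 kb from that of *EHF*, 9 have a row in the *ZMAT3* table. Of these 9, 0 passed both thresholds in limma, against 8.96% of all genes. *ELF5*, the nearest listed gene at -95.9 kb, has no row in the *ZMAT3* table. The nearest that could be measured were *CAT*, which encodes catalase, whose start is at -182.2 kb from that of *EHF*, and *ABTB2*, at -263.1 kb. *CAT* was at 5.70, 5.71 and 5.70 log2 CPM in *ZMAT3*-WT and 6.25, 6.15 and 6.16 in *ZMAT3*-KO libraries, a difference of 0.48, and *ABTB2* was at 4.01, 3.80 and 3.83 against 3.32, 3.48 and 3.42, a difference of -0.47. On the far side *PDHX*, starting 294.7 kb after the start of *EHF*, differed by -0.45, *APIP*, at 295.3 kb, by -0.24, and *CD44*, a cell surface receptor at 517.8 kb, by -0.09. Without the fold threshold 8 of 9 passed, 2 higher and 6 lower, against 58.8% of all genes, with a median of -0.24 over the 9 genes and of -0.01 over all genes.

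**Figure D4:**
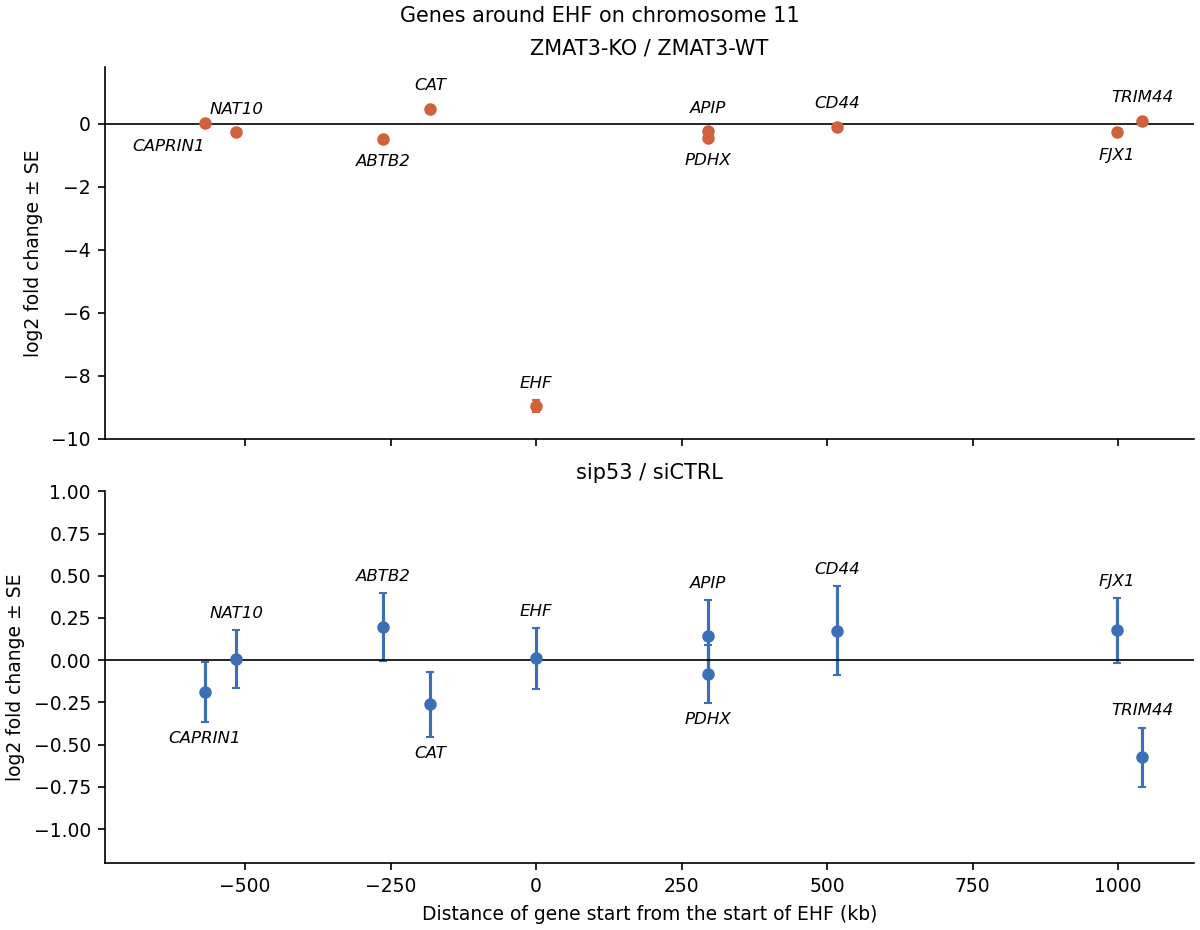
Log2 fold change ± SE of EHF and the measured genes around it on chromosome 11 against the distance of their starts from the start of EHF in kb, for ZMAT3-KO over ZMAT3-WT (above) and sip53 over siCTRL (below, on a narrower scale). Above, EHF is at -8.96 while the measured neighbours run from -0.47 (ABTB2) to 0.48 (CAT), and below EHF is at 0.01. No measured neighbour starts between CAT at -182.2 kb and PDHX at 294.7 kb.

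With sip53 1 of 9 genes tested around *EHF* passed, against 15.1% of all genes tested. *TRIM44*, starting 1041.7 kb after the start of *EHF*, was at 24.61 and 23.65 FPKM with siCTRL against 15.28 and 17.12 FPKM with sip53, a fall of 0.57 (SE 0.175, limma, unadjusted p = 0.0199, adjusted p = 0.236). The call was lost without siCTRL replicate 1, siCTRL replicate 2 or sip53 replicate 1, where 0 of 9 passed.

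As EHF and ELF3 are factors of epithelial cells, 22 epithelial genes were followed with them. In *ZMAT3*-KO cells 3 of 22 passed, all lower, against 8.96% of all genes, 4.37% lower. All 3 encode keratins of simple epithelia. *KRT19* was at 9.64, 9.54 and 9.56 log2 CPM in *ZMAT3*-WT and 7.85, 7.79 and 7.85 in *ZMAT3*-KO libraries and fell by 1.75 (SE 0.032, limma, adjusted p = 1.82e-13). *KRT8* fell by 0.94 and *KRT18*, its partner in filaments, by 0.82 (limma, adjusted p = 1.05e-10 and 1.3e-10). *CDH1*, which encodes E-cadherin, was at 6.28, 6.36 and 6.35 against 6.40, 6.41 and 6.32 log2 CPM, and *EPCAM* at 8.51, 8.56 and 8.56 against 8.54, 8.54 and 8.58, with groups that overlapped for both. Of the 22 genes 15 passed without the fold threshold, 8 higher and 7 lower, against 58.8% of all genes, and without *ZMAT3*-KO replicate 2 the count past both thresholds was 5 in place of 3.

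With sip53 2 of the 22 epithelial genes passed, against 15.1% of all genes tested, *EPCAM*, which rose by 0.60 (SE 0.190, limma, unadjusted p = 0.0234, adjusted p = 0.247), and *MARVELD2*, a gene of tight junctions, which fell by 0.49 (SE 0.188, limma, unadjusted p = 0.0437, adjusted p = 0.311). The count was 0 without siCTRL replicate 1, siCTRL replicate 2 or sip53 replicate 2, and 1 without sip53 replicate 1.

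Of 8 genes of mesenchymal transition 5 have a row in the *ZMAT3* table, and 2 of these 5 passed, against 8.96% of all genes. They went in opposite directions. *VIM*, the mesenchymal filament gene, rose by 0.74 from a low level (SE 0.163, limma, adjusted p = 0.00177). *FN1*, which encodes fibronectin, fell by 0.88 (SE 0.068, limma, adjusted p = 3.02e-07). *ZMAT3*-WT library 1 was the lowest in *VIM*, and without it 1 of the 5 passed. With sip53 1 of 5 passed, against 15.1% of all genes tested, *SNAI1*, a repressor of E-cadherin, which rose by 1.04 (SE 0.299, limma, unadjusted p = 0.0159, adjusted p = 0.218), and 0 of 5 without siCTRL replicate 2.

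Of 15 genes of intestinal epithelial transcription factors given here 10 have a row in the *ZMAT3* table. Of these 10, 1 passed, against 8.96% of all genes. It was *HNF4A*, a factor of enterocyte differentiation, which fell by 1.48 from 2.92, 2.94 and 3.08 to 1.47, 1.45 and 1.60 log2 CPM (SE 0.084, limma, adjusted p = 1.61e-08). Without the fold threshold 4 of the 10 passed, 2 higher and 2 lower, against 58.8% of all genes. With sip53 0 of 10 genes tested passed, against 15.1% of all genes tested. *HNF4A* was at 0.05 to 0.19 FPKM in the siRNA experiment and was not tested.

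**Figure D5:**
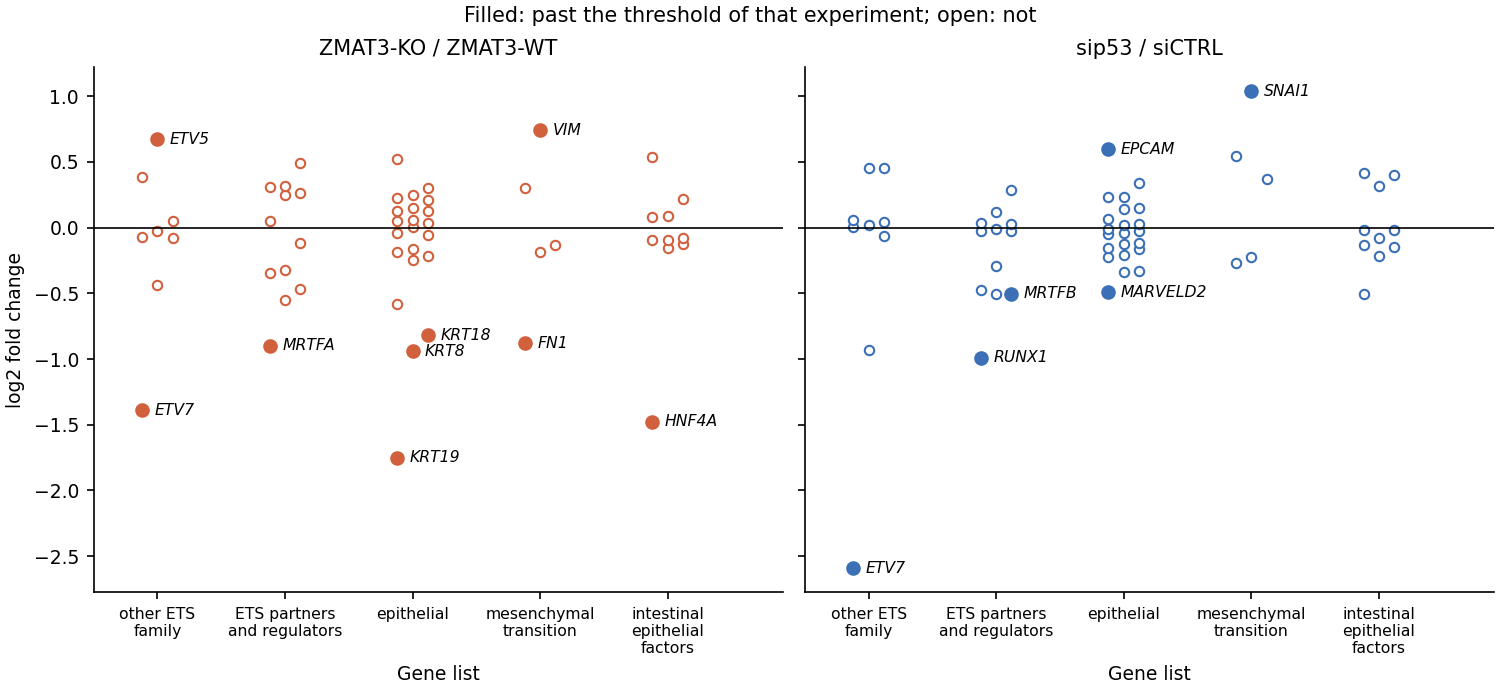
Log2 fold change of the tested genes of the 5 lists around the ETS factors, for ZMAT3-KO over ZMAT3-WT (left) and sip53 over siCTRL (right), with filled points past the threshold of that experiment and open points not. On the left the filled points are ETV5, ETV7, MRTFA, 3 keratin genes, VIM, FN1 and HNF4A, the lowest being KRT19 at -1.75, and on the right ETV7 at -2.59 is the lowest and SNAI1 at 1.04 the highest of the genes shown.

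The 5 genes whose profile over the 6 *ZMAT3* libraries was nearest to that of *EHF*, by the Euclidean distance between log2 CPM values centred on each gene's mean, were *AC104389.4*, *SLC40A1*, *HBE1*, *OR51B5* and *ZNF432*, at distances of 1.53, 1.92, 2.29, 2.36 and 2.37. Picked for this likeness, all 5 were bound to be far lower in the *ZMAT3*-KO than in the *ZMAT3*-WT libraries, so nothing is read from that. Each reached the lowest value of the table, -6.62, in at least 1 *ZMAT3*-KO library, which *EHF* did not. *SLC40A1*, the iron exporter gene, was at 1.42, 1.499 and 1.75 against -4.79, -6.62 and -6.62 log2 CPM. *HBE1*, an embryonic globin gene, was at 4.32, 4.23 and 4.26 against -6.09, -4.15 and -6.62, and *OR51B5*, an olfactory receptor gene, at 4.37, 4.37 and 4.49 against -6.62, -4.98 and -4.98. The groups were far apart in each of these genes, again by the way they were picked. *AC104389.4* was at 1.68, 1.56 and 1.59 against -6.09, -6.62 and -6.09, and *ZNF432*, a zinc finger gene, at 0.27, 0.40 and 0.98 against -6.62 in each *ZMAT3*-KO library. Where the siRNA table lists them, *HBE1* was at 117.87 and 164.82 FPKM with siCTRL against 338.48 and 310.38 FPKM with sip53, and *OR51B5* at 1.60 and 0.64 against 1.08 and 0.76 FPKM.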

How the data were processed

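RNA-seq tables of 10 HCT116 libraries were used, with samples grouped by their labels. In the *ZMAT3* experiment polyadenylated RNA was sequenced in stranded libraries, and the authors aligned the reads to hg38 with STAR, counted genes with RSEM and deposited log2 CPM values (log2 of counts scaled to the library total). In each library these ran from -6.62 to 13.51, so 1 distribution had been set for all. The authors deposited the siRNA values without a stated unit, and they were read here as FPKM. The submitters' processing notes also list CASAVA 1.8.2, TopHat2 2.0.8, FastQC 0.11.2, hg19 and hg38, with no role. Deposited columns of the authors' own comparisons (fold ratios, log2 fold changes, a mean signal, a test score and p-values) were not used. No table holds read counts, so the depth is unknown and no counting error can be given. Linear sums were 999929 to 999931 CPM and 708634 to 829230 FPKM per library.

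Each experiment was fitted alone with limma 3.58.1 in R 4.3.3 (two-sided moderated tests from lmFit and eBayes, trend on, adjusted by Benjamini-Hochberg over all genes tested). The *ZMAT3* values were taken as deposited, with no filter, and called at an adjusted p of 0.05 and 1.5-fold. The siRNA values were log2(FPKM + 0.1), kept where a gene averaged 0.5 FPKM or more, and called at an unadjusted p of 0.05, as in the study. With 2 or 3 cultures a group, p-values measure the spread between cultures. The script was tested on simulated data. The ETS factors and all gene lists were chosen with earlier results of these data known. Genes named from a list are those called in an experiment, at most the 6 with the largest change, and any needed to account for the list. The intestinal list and the label checks each held 1 more gene, which is not reported here and is left out of the counts and figures, so counts for the intestinal list cover its other genes only. *KRT8*, *KRT18*, *EPCAM*, *CDH1* and *CDX2* are both markers and members of lists. Positions are from GENCODE release 44 (hg38) and sequences from RefSeq (GRCh38.p14). Alternatives were a pseudocount of 1, other filters, median centring of libraries, the trend off, the replicate block, other thresholds, and each library left out. Tables were handled in Python 3.11.15 with pandas 2.3.3 and numpy 2.4.6, and figures drawn with matplotlib 3.10.9.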

Additional observations from a re-analysis of the deposited data

How the results depend on the processing

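In the *ZMAT3* experiment the count of ETS factor genes called stayed at 3 under every alternative except no fold threshold. With a pseudocount of 1 CPM 1 mesenchymal gene was called and *EHF* was at -5.39, and with a mean log2 CPM of at least 0, which removes *ETV7*, 1 other ETS gene. Without the fold threshold the counts were 15 epithelial, 11 partner, 8 around *EHF*, 4 intestinal, 5 of the ETS factors, 4 mesenchymal and 4 other ETS genes. In the siRNA experiment, 1 of the ETS factors was called with a pseudocount of 1 FPKM or with no variance trend (*ELK4* lost at unadjusted limma p-values of 0.0515 and 0.0649). With a mean of at least 5 FPKM 1 partner and 0 other ETS genes were called. Centring each library on its median gene moved the split of all calls from 836 higher and 1325 lower to 1120 higher and 1048 lower and the median of all genes from -0.04 to 0.04. It gave 1 epithelial, 1 partner and 2 mesenchymal genes, moved *ELF4* to 0.024 and *ELK3* to 0.065, called *ELF3* and lost *ELK4* (-0.38). With no variance trend 1 epithelial and 1 partner gene were called. At an adjusted p of 0.05 0 genes of each of the 7 lists were called in limma.

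Same-numbered libraries did not deviate together in the *ZMAT3* experiment (correlations of -0.04, -0.02 and -0.09), where the replicate block gave 1178 calls in place of 1168. In the siRNA experiment the correlation was -0.62 for same-numbered libraries and 0.62 for differently numbered ones, which thus deviated together. The main fit took no account of this. The replicate block gave 1084 calls over all genes in place of 2161, with 0 epithelial, 1 partner, 0 genes around *EHF* and 1 of the ETS factors, *ELF1*. Crossed replicate numbers, a setting added after the data had been seen, gave 5538 calls over all genes and 4 of the ETS factors.

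Leaving out each library in turn, siRNA counts ran from 0 to 1 for the ETS factors, epithelial, mesenchymal and intestinal genes and genes around *EHF*, and from 1 to 2 for partner and other ETS genes. *EHF* then ran from -0.076 to 0.10, *ELF2* from -0.0087 to 0.33, *ELF4* from -0.18 to 0.078 and *ELK3* from -0.13 to 0.10. In the *ZMAT3* experiment the counts ran from 3 to 5 for epithelial and from 1 to 2 for mesenchymal genes, and *ELF2* from -0.0053 to 0.02. With a lone library in a group, that library was assumed to vary like the other group. Depth is unknown, and 2 siRNA libraries a group leave changes within the intervals given undetected.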
